A study of Mus musculus with 4 samples.

Results

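The genes described here are the transcription factors of CD8+ T cells that belong to the T-box and Runx families: *Tbx21* and *Eomes*, which encode the T-box factors T-bet and Eomesodermin, *Runx1*, *Runx2* and *Runx3*, which encode the DNA-binding Runx subunits, and *Cbfb*, which encodes the subunit that all Runx proteins share. They were chosen by symbol, and all 6 were found among the 17559 genes listed and passed the filter on low counts that left 12943 genes for testing. RNA-seq was performed on CD8+ T cells of C57BL/6 mice of the OT-I line, whose transgenic receptor recognises an ovalbumin peptide, from tissue labelled LN. The cells of every library had been enriched by depletion of other cells on magnetic columns to a purity over 95%. They were activated for 2 d with IL-2 (10 ng/ml) on plates coated with antibodies to CD28 (2 µg/ml) and CD3 (1 µg/ml) and then kept for 2 d in IL-2 alone. The 2 control libraries received the control treatment and the 2 NaBu libraries 1 mM NaBu, both for 12 h. NaBu is the usual short name of sodium butyrate, a salt of a short-chain fatty acid that inhibits histone deacetylases. All cells had thus been activated in culture before the treatment began. Whether the replicates were separate animals or cultures is not in the labels. The p-values therefore reflect no more than the spread among these libraries, which may be technical.

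T-bet and Eomesodermin bind the same core DNA element and share many target genes in cytotoxic lymphocytes. T-bet is the classical inducer of interferon gamma and of short-lived effector cells, and Eomesodermin is known for perforin expression and for memory cell homeostasis. Runx proteins bind DNA through the Runt domain, and the beta subunit, which does not touch DNA, raises their affinity and protects them from degradation. Runx3 is the main Runx factor of CD8+ T cells, where it silences *Cd4* and acts with T-bet and Eomesodermin on cytotoxic genes. Each Runx gene is transcribed from a distal and a proximal promoter.

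The promoter windows are shown first, because those of the 3 Runx genes share a run of letters. Any part of it in the changes described below was not tested. Windows run from 250 bases before to 50 bases after an annotated transcript start and were taken from RefSeq (GRCm38.p6, the assembly also called mm10), printed 5′ to 3′ on the strand of the gene. Capitals mark the Runx core TGTGGT, here always on the opposite strand as ACCACA, or the GC box GGGCGG or its reverse complement. The 3 Runx windows shown are at chr16:92826025-92826324 (minus strand), chr17:44814578-44814877 (minus strand) and chr4:135120395-135120694 (plus strand). Those of *Runx1* and *Runx3* are at the most upstream annotated start. *Runx2* has a single window, here also labelled distal. Its start lies downstream of the outer end of the annotated gene at 44814797, and positions in *Runx2* count from that window start.
Runx1, distal: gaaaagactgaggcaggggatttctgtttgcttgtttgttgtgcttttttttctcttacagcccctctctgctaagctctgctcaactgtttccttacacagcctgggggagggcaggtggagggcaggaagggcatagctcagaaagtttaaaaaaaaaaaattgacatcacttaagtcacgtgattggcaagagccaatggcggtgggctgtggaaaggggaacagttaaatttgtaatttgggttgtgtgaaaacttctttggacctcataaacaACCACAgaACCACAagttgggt
Runx2, distal: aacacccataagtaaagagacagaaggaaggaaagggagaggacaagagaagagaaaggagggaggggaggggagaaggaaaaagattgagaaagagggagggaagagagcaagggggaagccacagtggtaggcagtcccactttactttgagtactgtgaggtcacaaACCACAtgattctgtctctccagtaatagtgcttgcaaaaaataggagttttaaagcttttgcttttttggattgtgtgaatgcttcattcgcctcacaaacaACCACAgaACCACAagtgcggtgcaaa
Runx3, distal: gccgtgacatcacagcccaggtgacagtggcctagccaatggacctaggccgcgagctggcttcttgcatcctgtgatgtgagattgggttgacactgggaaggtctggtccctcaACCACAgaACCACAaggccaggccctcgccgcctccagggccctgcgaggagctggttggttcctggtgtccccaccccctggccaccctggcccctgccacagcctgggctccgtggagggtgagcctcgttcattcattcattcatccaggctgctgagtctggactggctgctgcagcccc
The longest run of letters common to these 3 windows was 18 bases long and holds 2 Runx cores whose first bases lie 8 bases apart.
Shared run: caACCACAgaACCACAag
Of 32851 windows of the same length, 4 held this run on either strand, which is 0.0122%. They were the 3 shown and the window of *Gm16225*, a gene on the other strand whose window overlaps that of *Runx3* by 232 bases. The run was defined from the 3 windows shown, so their matches were fixed in advance and the count is no test of rarity. A pair of Runx cores on one strand at this spacing, also read from these windows, was present in 7 windows (0.0213%). A single Runx core on either strand was present in 16.8% of all windows. The run began 27 bases after the annotated start of *Runx1* and 22 bases after the start used for *Runx2*, that is, inside the transcript. In *Runx3* it began at position -136. *Runx2* had a further core at position -80 from the start used. A match in these windows is a description of the letters and does not show binding.

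The windows of *Tbx21* (chr11:97115282-97115581, minus strand) and *Cbfb* (chr8:105170424-105170723, plus strand) are printed because the genes with the largest rise and the largest fall among the 6 both have GC boxes, the element bound by Sp1-type factors.
Tbx21: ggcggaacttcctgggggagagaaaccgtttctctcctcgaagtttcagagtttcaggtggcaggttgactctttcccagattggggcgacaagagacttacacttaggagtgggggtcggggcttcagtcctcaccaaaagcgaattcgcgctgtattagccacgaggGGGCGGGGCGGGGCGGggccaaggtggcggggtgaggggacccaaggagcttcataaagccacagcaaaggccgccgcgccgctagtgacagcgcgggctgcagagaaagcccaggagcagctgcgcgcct
Cbfb: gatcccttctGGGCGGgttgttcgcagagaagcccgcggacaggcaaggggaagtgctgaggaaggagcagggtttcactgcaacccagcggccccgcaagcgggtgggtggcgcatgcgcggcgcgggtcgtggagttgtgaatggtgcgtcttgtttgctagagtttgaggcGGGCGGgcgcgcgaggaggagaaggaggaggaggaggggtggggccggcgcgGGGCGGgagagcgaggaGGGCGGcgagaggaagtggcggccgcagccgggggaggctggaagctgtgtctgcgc
*Tbx21* held 3 GC boxes that overlap one another, starting at positions -81, -76 and -71, and *Cbfb* held 4. A GC box was present in 35.7% of all windows. Their CpG counts were 21 and 30, against a median of 7 over all windows. The window of *Eomes* (chr9:118477939-118478238) had 10 CpGs and no match to any of the 3 motifs searched, and the T-box core GGTGTG, present in 19% of all windows, was in no window of the 6 genes. The proximal window of *Runx3* (chr4:135152295-135152594) had 45 CpGs, more than 98.1% of windows, and 3 GC boxes. That of *Runx1* (chr16:92697280-92697579) had 35 CpGs and no match. The distal window of *Runx1* and the single window of *Runx2* were CpG-poor, with 2 CpGs each, and distal *Runx3* had 8.

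**Figure D1:**
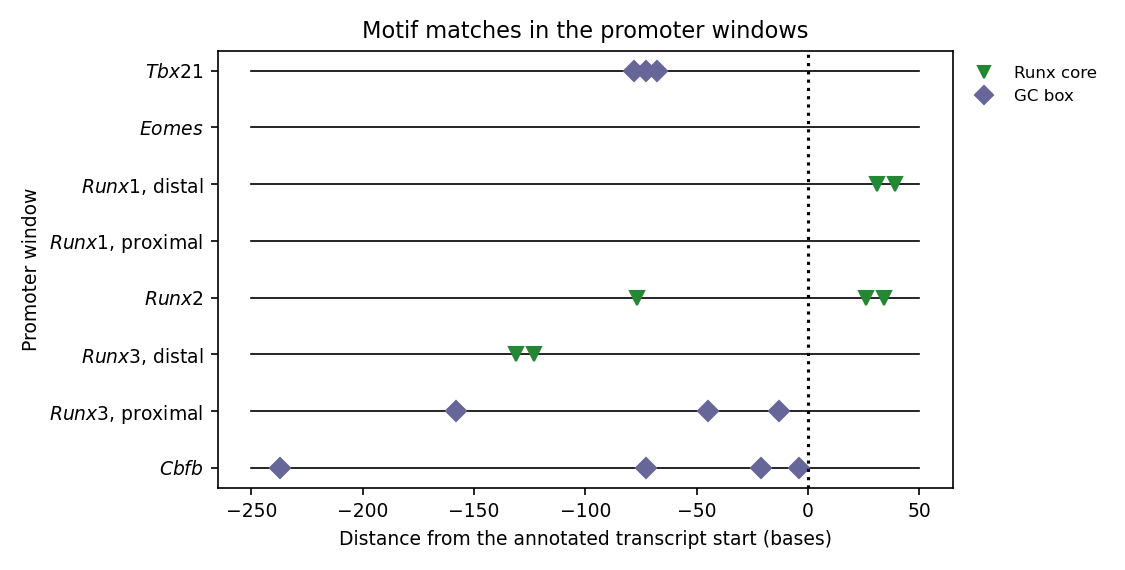
Positions of the motif matches in the 8 promoter windows of the 6 genes, as distance in bases from the annotated transcript start (dotted line), with a triangle for each Runx core and a diamond for each GC box on either strand. The paired Runx cores lie just after the start in distal *Runx1* and in *Runx2* and before it in distal *Runx3*, and *Tbx21*, proximal *Runx3* and *Cbfb* have 3, 3 and 4 GC boxes.

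The depth of the libraries ranged from 19857701 to 20548571 expected counts. T cell markers were abundant, and the 7 found of 10 listed summed to an FPKM of 1311.5 to 1369.1 in the 4 libraries. Of these 5 were lower after NaBu, among them *Cd247* (2.32-fold) and *Cd3d* (1.67-fold), and 2 were higher, *Cd3g* (1.33-fold) and *Cd28* (1.25-fold). Of 15 myeloid and dendritic markers 11 were found, with a summed FPKM of 22.69 and 21.43 in the controls, against 55.18 and 56.18 after NaBu. Of the 7 that could be tested 6 were higher and 1 lower, with *Cd68* at 28.38 and 27.13 after NaBu (2.48-fold higher), *Itgam* at 4.83 and 3.79 (8.93-fold) and *Mpeg1* at 1.96 and 1.86 (6.03-fold). The lower gene was *Xcr1*, at 2.09 and 1.94 in the controls, against 0.87 and 0.73 after NaBu (2.72-fold lower). *Lyz2*, *Csf1r*, *S100a8* and *S100a9* were not found under these symbols. *Adgre1*, *Fcgr1*, *Siglech* and *Cd14* were too low to be tested, with an FPKM of at most 0.21 in any library. Summed NK and innate lymphoid markers (5 of 6 found), the other lymphocytes that use T-bet and Eomesodermin, were 12.86 and 11.86 in the controls, against 6.11 and 7.06 after NaBu. Most of that sum was *Klrb1c*, which fell 2.00-fold to 4.94 and 5.57, and *Ncr1*, which defines NK cells, had 2 and 3 counts in the controls and 0 after NaBu. B cell markers (4 of 6 found) summed to 6.08 and 4.32 in the controls, against 3.30 and 2.55 after NaBu, with *Cd79b* 2.32-fold lower and *Cd22* 2.00-fold higher. Stromal and endothelial markers (5 of 6 found) summed to 21.91 to 24.39, although 3 of the 4 tested were higher and 1 lower. Most of that sum was *Pecam1*, which fell 1.38-fold to 16.96 and 16.25. *Pdgfrb* rose 16.4-fold from 0.05 and 0.1 to 1.51 and 1.2, *Col1a1* rose 6.52-fold and *Epcam* 1.76-fold. The part of such cells in the results below was not tested, beyond these levels.

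Both T-box genes rose after NaBu. *Tbx21* (gene 57765, chromosome 11, 97098007 to 97115331) stood at an FPKM of 26.92 and 25.37 in the controls, against 58.7 and 61.9 in the NaBu libraries, and the lowest NaBu value was far above the highest control. Its log2 fold change was 1.11 ± 0.06 (SE), a 2.16-fold rise with an adjusted p of 1.21e-07 by edgeR's quasi-likelihood test, which scales libraries by TMM factors and so gives slightly smaller rises than the FPKM means. *Eomes* (gene 13813, chromosome 9, 118478186 to 118486132) stood at an FPKM of 70.32 and 75.94 in the controls, against 138.9 and 129.96 after NaBu. The NaBu libraries were again both above the controls. The log2 fold change of *Eomes* was 0.78 ± 0.07 (SE), a 1.72-fold rise (edgeR adjusted p = 2.49e-06). In both genes the gap between the groups was several times the larger within-group range, 9.93 times for *Tbx21* and 6.04 times for *Eomes*. In bulk RNA a change in the share of cells that express a gene and a change in RNA per cell cannot be told apart.

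All 6 genes passed the test, 4 higher and 2 lower, in a comparison in which 68.6% of all genes tested passed, 34.5% higher and 34.1% lower. That even balance belongs to the TMM scale, and on library totals 5175 genes were higher and 3720 lower. A count of 6 of 6 is therefore no mark of these genes, and the size of each change carries the description. When the null was set at a 1.5-fold change, which 29.2% of all genes passed, *Tbx21*, *Eomes*, *Runx3* and *Cbfb* passed (edgeR glmTreat, adjusted p of 7.47e-06, 0.00706, 0.00362 and 3.47e-06), whereas *Runx1* and *Runx2* did not (adjusted p = 1.0 for each). Changes of 2-fold or more that passed the test were seen for *Tbx21* and *Cbfb*, and for 23.1% of all genes, 14.9% higher and 8.11% lower. With the trend of fold change on transcript GC content removed, *Tbx21* was under 2-fold (log2 fold change 0.91). *Cbfb* stayed past 2-fold (-1.15). The FPKM values of the groups did not overlap for any of the 6, and for 84% of all genes, 48% higher and 35.9% lower. Changes larger in size than that of *Cbfb* were seen for 17.05% of genes tested, larger than that of *Tbx21* for 20.41%, and larger than that of *Runx2* for 74.6%.

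**Figure D2:**
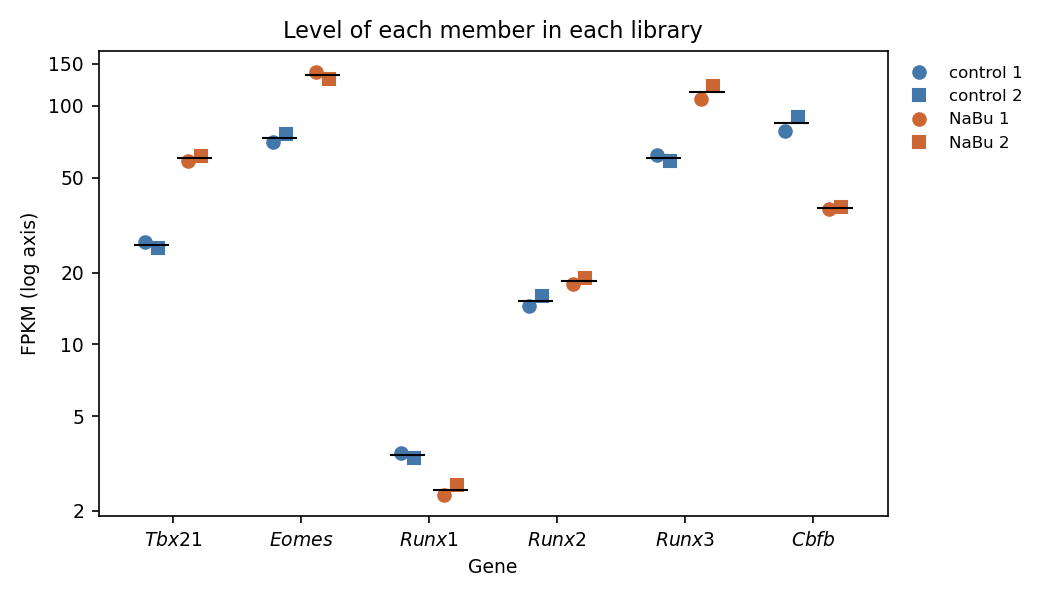
FPKM of the 6 genes on a log axis in each library, with control libraries in blue, NaBu libraries in orange, circles for replicate 1, squares for replicate 2 and a bar for the mean of 2. *Tbx21*, *Eomes* and *Runx3* are higher in both NaBu libraries, *Cbfb* and *Runx1* are lower, and *Runx2* differs least.

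The 3 Runx genes did not move together. *Runx3* (gene 12399, chromosome 4, 135120645 to 135177990) stood at an FPKM of 61.99 and 58.55 in the controls, against 107.35 and 121.32 after NaBu. Both NaBu libraries stood above both controls, although they differed from each other by 13.97, the widest range in FPKM among the 6 genes. Relative to the mean, their SD was 8.64%, against 9.54% for *Cbfb* in the controls. The change of *Runx3* was 0.83 ± 0.07 on the log2 scale (SE), a 1.77-fold rise (edgeR adjusted p = 2.98e-06).

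*Runx2* (gene 12393, chromosome 17, 44495987 to 44814797), best known from bone formation and also described in long-lived memory CD8+ T cells, stood at an FPKM of 14.43 and 15.98 in the controls, against 17.95 and 19.06 after NaBu. The groups did not overlap, which held for 84% of all genes tested, but the gap between them was only 1.27 times the range of the controls. The log2 fold change of *Runx2* was 0.21 ± 0.07 (SE), a 1.16-fold rise with an edgeR adjusted p of 0.0171. That call was lost without control 1 (adjusted p = 0.0642), without NaBu 1 (0.0759) and without NaBu 2 (0.203), all by edgeR.

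*Runx1* (gene 12394, chromosome 16, 92601466 to 92826074), the Runx factor of early thymocytes and blood stem cells, was the least abundant of the 6. Its FPKM was 3.5 and 3.34 in the controls, against 2.33 and 2.56 after NaBu, so both NaBu libraries lay below both controls. It fell with a log2 fold change of -0.51 ± 0.10 (SE), a 1.42-fold fall (edgeR adjusted p = 0.000777). The counts behind it were also the smallest, with 441 and 422 in the controls, against 295 and 334 after NaBu. For 295 counts the counting error alone is 5.8%.

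*Cbfb* (gene 12400, chromosome 8, 105170674 to 105217989), the only gene of the beta subunit, fell and showed the largest change of the 6. Its FPKM was 78.77 and 90.17 in the controls, against 36.97 and 37.67 in the NaBu libraries. The 2 controls differed by 11.4 and the 2 NaBu libraries by 0.7, and the gap between the groups was 41.1. The change was -1.27 ± 0.07 on the log2 scale (SE), a 2.42-fold fall with an edgeR adjusted p of 1.28e-07. A lower log2 fold change than that of *Cbfb* was found for 4.98% of the genes tested.

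**Figure D3:**
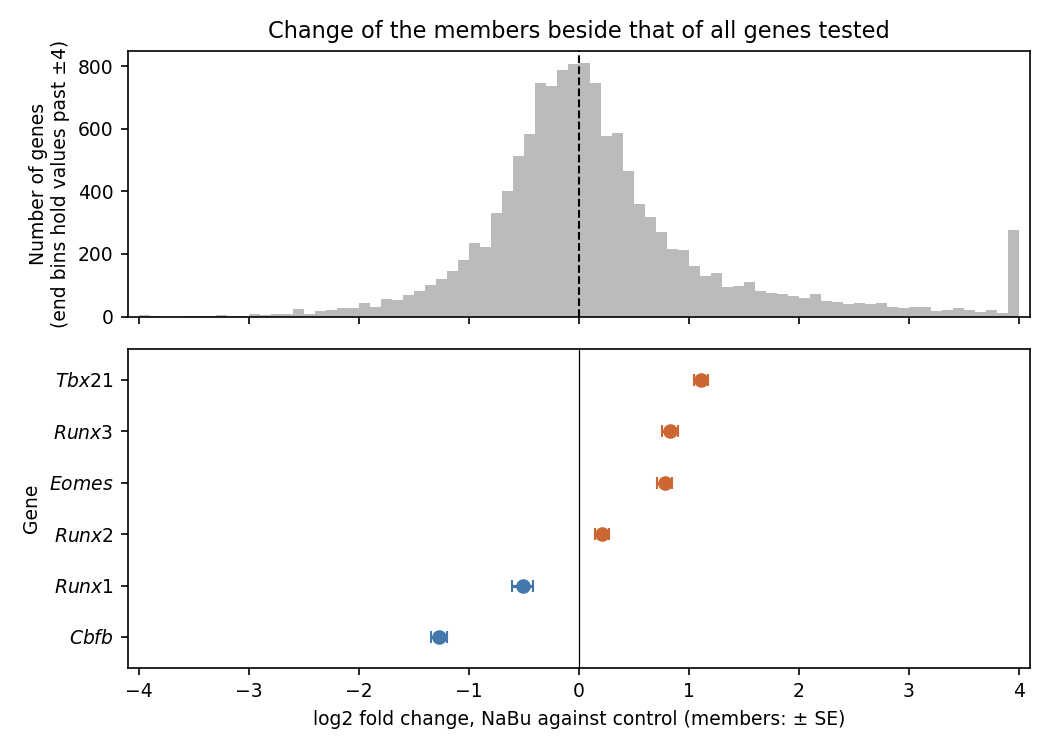
The upper panel counts all 12943 genes tested by log2 fold change of NaBu against control, with their median as a dashed line and values past 4 in either direction drawn in the end bins. The lower panel gives the 6 genes with their standard errors, from -1.27 for *Cbfb* to 1.11 for *Tbx21*.

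The opposite changes of *Cbfb* and *Runx3* altered the proportions of the Runx transcripts. FPKM is scaled to transcript length, so levels of different genes can be set side by side, although protein amounts were not measured. The summed FPKM of the 3 Runx genes was 79.92 and 77.87 in the controls, against 127.63 and 142.94 after NaBu. *Cbfb* transcript stood at 0.986 and 1.16 per unit of summed Runx transcript in the controls and at 0.290 and 0.264 after NaBu. The mean ratio was 1.07 ± 0.12 (SD, n = 2) in the controls, against 0.277 ± 0.018 (SD, n = 2) after NaBu, 3.87 times lower, and the groups did not overlap. The ratio of *Runx3* to *Cbfb* went from 0.787 and 0.649 to 2.90 and 3.22. These ratios are given as values without a test. The smallest p of an exact two-sided permutation test of 2 against 2 would be 0.333.

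Within the Runx genes the pool was mostly *Runx3* in every library, and its share was higher after NaBu. *Runx3* made up 77.6% and 75.2% of the summed Runx FPKM in the controls, against 84.1% and 84.9% after NaBu. The share of *Runx2* was 18.1% and 20.5% in the controls, against 14.1% and 13.3% after NaBu, so *Runx2* had a smaller share although its own level was higher. The share of *Runx1* went from 4.38% and 4.29% to 1.83% and 1.79%. There were 17.7 and 17.5 times as much *Runx3* as *Runx1* transcript in the controls, and 46.1 and 47.4 times as much after NaBu.

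Between the T-box genes the balance shifted little. *Eomes* exceeded *Tbx21* in every library, and the ratio of *Tbx21* to *Eomes* was 0.383 and 0.334 in the controls, against 0.423 and 0.476 after NaBu. These values did not overlap, but the nearest values of the groups differed by less than the range within either group. The mean ratio was only 1.25 times higher after NaBu, with 0.358 ± 0.034 against 0.449 ± 0.038 (SD, n = 2 per group). With the GC trend removed, the log2 fold changes of *Tbx21* and *Eomes* were 0.91 and 0.75, against 1.11 and 0.78 in the main fit. The summed T-box FPKM was 97.24 and 101.31 in the controls, against 197.6 and 191.86 after NaBu.

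**Figure D4:**
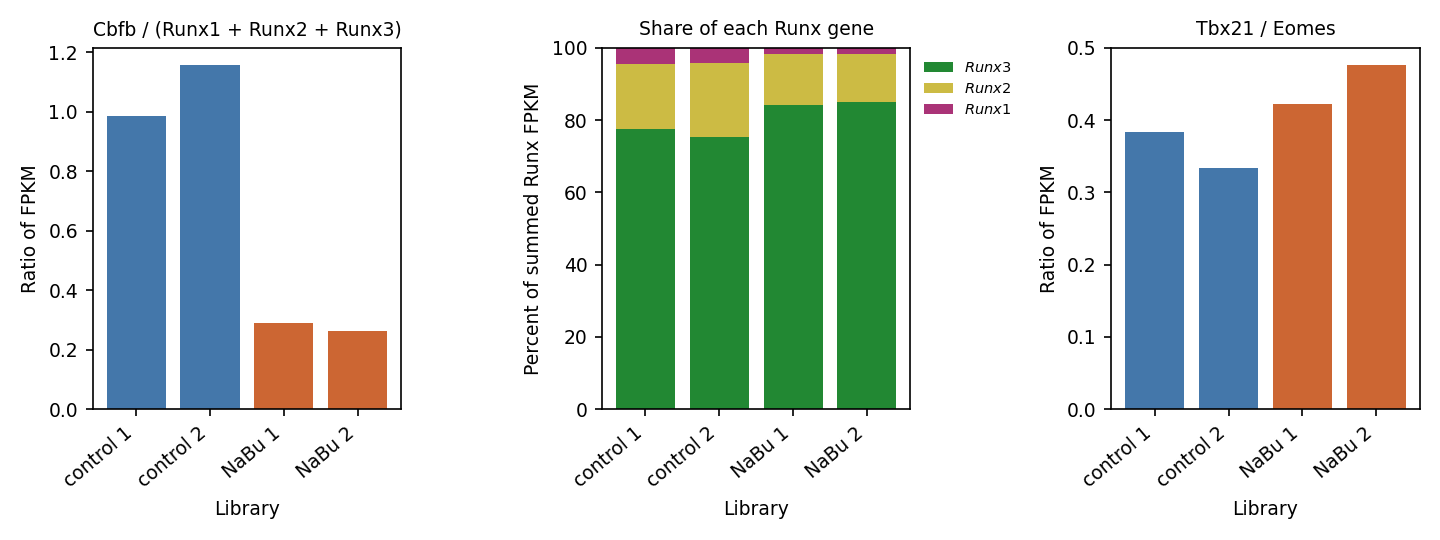
Ratios and shares of FPKM in each library, control in blue and NaBu in orange in the outer panels. The left panel gives *Cbfb* relative to the 3 Runx genes, which is near 1 in the controls and at 0.290 and 0.264 after NaBu, the middle panel the share of each Runx gene in their sum, and the right panel *Tbx21* relative to *Eomes*.

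The order of the 6 genes by level changed with the treatment. In the controls *Cbfb* had the highest FPKM, followed by *Eomes*, *Runx3*, *Tbx21*, *Runx2* and *Runx1*. Neighbours in this order did not overlap, but *Cbfb* exceeded *Eomes* by only 1.16 times in the mean, and the gap between their nearest libraries (78.77 against 75.94) was smaller than the range of either gene. After NaBu *Eomes* was first, followed by *Runx3*, *Tbx21*, *Cbfb*, *Runx2* and *Runx1*. Again no neighbours overlapped, with *Eomes* at 129.96 to 138.9 and *Runx3* at 107.35 to 121.32 the closest. *Cbfb* thus went from the first to the fourth place. Among all genes tested, ranked by mean FPKM, *Eomes* moved from rank 1064 to 494, *Runx3* from 1290 to 617, *Tbx21* from 3091 to 1242 and *Cbfb* from 910 to 2116.

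The files also give an abundance-weighted transcript length for each gene and library, which changes when a gene's transcripts change in proportion. It was constant for *Tbx21* (2552 bases) and *Runx3* (3891 bases), for each of which a single RefSeq transcript is listed, so promoter use of *Runx3* could not be read from it. For *Runx1*, with 4 listed transcripts, it was 6125.83 and 6073.38 bases in the controls, against 6300.1 and 6498.23 after NaBu, 4.91% longer in the mean and without overlap. For *Runx2*, with 8 transcripts, it was 5658.38 and 5569.26 in the controls, against 5720.62 and 5671.08 after NaBu. The groups did not overlap, but their nearest values differed by less than the range within either group. The mean lengths of *Eomes* and *Cbfb* moved by 0.014% and 0.069%, and the groups of *Cbfb* did not overlap even at that small change. How often lengths separate among all genes was not computed, so the lack of overlap is a description only. *Runx2* overlaps *Supt3*, a gene of the opposite strand, over 37646 bases of the gene spans. Overlap of their exons was not computed, and nothing states whether the libraries were stranded. Whether reads of the pair were mixed was therefore not tested. *Supt3*, which codes for a subunit of a histone acetyltransferase complex, fell 1.47-fold (log2 fold change -0.55, edgeR adjusted p = 0.000852) where *Runx2* rose. Smaller antisense genes also overlap *Eomes*, *Runx1*, *Runx2* and *Runx3*.

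The nearest tested protein-coding genes on either side changed in the same direction for some of the 6 and not for others. Beside *Tbx21*, *Tbkbp1*, a binding partner of the kinase TBK1 that lies 20840 bases away, rose 1.31-fold (edgeR adjusted p = 0.00175). *Osbpl7* on the other side did not pass (log2 fold change 0.18). With the trend of fold change on transcript GC content removed, *Tbkbp1* no longer passed (log2 fold change 0.07, edgeR adjusted p = 0.381). Beside *Eomes*, *Golga4* at 20135 bases rose 1.58-fold and *Cmc1* at 328035 bases rose 1.56-fold. Both neighbours of *Runx3*, *Clic4* and *Syf2*, did not pass, with log2 fold changes of -0.12 and 0.02. Beside *Cbfb*, *Rrad* at 539347 bases fell 1.51-fold, and *D230025D16Rik*, only 7156 bases away, did not pass (log2 fold change 0.02). Beside *Runx1*, *Rcan1* at 130599 bases rose 1.26-fold while *Runx1* fell, and beside *Runx2*, *Clic5* at 215815 bases rose 4.05-fold to a low FPKM of 1.22 and 1.21. Their neighbours on the other side, *Setd4* and *Cdc5l*, did not pass. These neighbours were looked up after the values of the 6 genes were known.

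Likeness of pattern was measured as the Euclidean distance between centred log2 CPM profiles over the 4 libraries, among genes whose mean FPKM reached 5. With 4 libraries it finds genes of similar fold change and similar differences between replicates, and says no more. The likest to *Tbx21* was *Chd7*, a chromatin remodeller gene, at a distance of 0.026, and *Sgsm3* followed at 0.0417. *Eomes* was likest to *Sgpl1* (0.0262) and *Lrrc8d* (0.0278), *Runx1* to *Zcchc10* (0.0221) and *Zfp703* (0.0313), and *Runx2* to *Arhgap26* (0.0233) and *Golga5* (0.0248). *Runx3* was likest to *Ptges2* (0.0476) and *Csf1* (0.0759), and *Cbfb* to *Cdc7*, a kinase gene of DNA replication, at 0.0189 and *Inpp4b* at 0.0289. Among the 6 genes themselves the closest pair was *Eomes* and *Runx3* at 0.241, and the farthest *Tbx21* and *Cbfb* at 2.39.

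Signals that induce the T-box genes were mostly higher, with 8 of 14 tested members higher, 2 lower and a median log2 fold change of 0.38, against 0.005 for all genes tested. *Ifngr2*, the signalling chain of the interferon gamma receptor, rose 2.92-fold, and the IL-12 receptor chains *Il12rb2* and *Il12rb1* rose 1.85-fold and 1.68-fold. *Il12rb2* and *Il2rb*, both higher, are also in the list of genes activated by T-box factors, so their rises are counted in both lists. The lower members were *Jak2* and *Stat5b*, with log2 fold changes of -0.17 and -0.19. Neither passed on library totals, where 9 members were higher and 0 lower, and *Jak2* did not pass with median-of-ratios factors or with the GC trend removed either. The counts of this and the following lists stand beside the 34.5% higher and 34.1% lower of all genes tested, and no list was tested as a set.

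Genes known to be activated by T-box factors were divided, with 12 of 19 higher and 5 lower and a median log2 fold change of 0.77. *Ccl3* and *Ccl4*, chemokine genes, rose 22.8-fold and 14.4-fold, *Ifng* rose 16.1-fold from an FPKM of 4.57 and 5.09 to 87.86 and 78.58, and *Cx3cr1* rose 5.15-fold to a low level of 1.27 and 1.38. The 5 lower members, named because they are few, were *Cxcr3*, *Klrg1*, *Nkg7*, *Il18r1* and *Il18rap*. *Cxcr3*, a chemokine receptor gene and a classical T-bet target, stood at an FPKM of 59.37 and 59.91 in the controls, against 27.11 and 29.46 after NaBu, a 2.25-fold fall, while *Tbx21* rose in the same libraries. *Nkg7* fell from 943.04 and 916.72 to 502.45 and 536.22.

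Genes known to be activated by Runx factors in CD8+ T cells were evenly divided, with 5 of 10 higher and 5 lower and a median of 0.12. The higher ones were *Ifng*, *Prf1*, *Gzmb*, *Eomes* and *Il2rb*, of which 4 are also among the T-box targets. *Eomes* is itself a T-box gene described above, so its rise is counted again in this list and adds nothing new to the count. *Prf1*, the perforin gene, rose 4.51-fold. *Itgae*, which codes for the integrin CD103 and depends on Runx3, fell 5.22-fold from an FPKM of 3.21 and 2.85 to 0.63 and 0.61, and *Il7r* fell 2.38-fold. *Cd8b1*, the gene of the CD8 beta chain, stood at an FPKM of 217.85 and 215.13 in the controls, against 155.14 and 155.16 after NaBu, a 1.49-fold fall, and *Cd8a* fell 1.31-fold. The fall of *Cd3e* (1.12-fold) did not pass on library totals.

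Of the genes that Runx or T-box factors are known to hold down, 5 of 9 tested were higher and 2 lower, with a median of 0.29. *Socs1*, a feedback inhibitor of cytokine signalling, rose 2.30-fold, and *Pdcd1*, the PD-1 gene, rose 1.29-fold but did not pass without NaBu 2 (edgeR adjusted p = 0.103). *Il7r* and *Bcl6* were the lower members, *Bcl6* with a 1.74-fold fall. *Il7r* is in this list and in that of genes activated by Runx factors, so the same fall is counted in both. *Cd4*, the classical target of Runx silencing in CD8+ T cells, had 1 and 2 counts in the controls, against 41 and 40 after NaBu. On library totals that is a ratio of 27.9, with a 95% counting interval of 9.18 to 138.0, at an FPKM of at most 0.66. *Zbtb7b*, which codes for the CD4-lineage factor ThPOK, rose 1.22-fold from 20.82 and 19.21 to 26.08 and 26.29. With the GC trend removed *Zbtb7b* did not pass (log2 fold change 0.05, edgeR adjusted p = 0.420), and the median of the list was then 0.05. *Cd4* and *Zbtb7b* were singled out after their values were seen, and both are also markers of CD4 T cells. Of the other 2 listed markers of those cells, *Foxp3* did not pass (FPKM of 0.24 and 0.12, then 0.23 and 0.24) and *Cd40lg* was too low to be tested (0.28 and 0.24, then 0.12 and 0). The part of such cells was not tested.

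Corepressors and partners of Runx proteins were divided too, with 7 of 14 higher and 4 lower and a median of 0.15. Groucho-type corepressors bind the carboxyl end of Runx proteins, and *Tle2* stood at an FPKM of 0.67 and 0.42 in the controls, against 9.77 and 9.39 after NaBu, a 16.1-fold rise. *Tle6* rose 14.7-fold, *Yap1* 3.78-fold and *Tle1* 2.80-fold, all from an FPKM near or below 1. The abundant member *Tle3* went from 42.64 and 39.31 to 78.47 and 79.7, a 1.81-fold rise, whereas *Tle4* had 12.2 and 11.7 in the means and did not pass. The 4 lower genes were *Aes*, *Cbfa2t3*, *Sin3a* and *Crebbp*. *Crebbp*, an acetyltransferase gene, fell 2.02-fold. *Ets1*, the partner that binds DNA beside Runx, did not pass (log2 fold change 0.14, edgeR adjusted p = 0.0569), but was higher under each of the 3 other scalings, for example on library totals (0.24).

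Partner and opposing factors of CD8+ T cell fate had 10 of 18 higher and 3 lower, with a median of 0.29. *Hlx*, a homeobox gene that acts with T-bet, rose 4.31-fold, *Irf4* 3.46-fold, *Prdm1*, the gene of the effector factor Blimp-1, 3.07-fold, and *Foxo1*, known to restrain T-bet, 2.95-fold. *Foxo1* stood at an FPKM of 20.98 and 19.54 in the controls, against 64.25 and 63.76 after NaBu. The lower members were *Batf*, *Bcl6* and *Zbtb32*, of which *Zbtb32* fell 2.08-fold. *Tcf7* and *Lef1*, factors of naive and memory cells, did not pass, with log2 fold changes of -0.10 and -0.11.

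No other T-box gene approached the level of *Tbx21* or *Eomes*. Of 16 further T-box symbols 12 were found and 5 had enough counts to be tested. The most abundant was *Mga*, with an FPKM between 7.44 and 8.01, which did not pass. *Tbx6* passed narrowly (FPKM of 0.66 and 0.82 in the controls, against 1.46 and 1.08 after NaBu, edgeR adjusted p = 0.0489) and lost the call when any of the 4 libraries was left out (adjusted p from 0.0525 to 0.318). *Tbx1* had 0 counts in both controls and 12 and 21 after NaBu, so that on library totals it was at least 11.3-fold higher, with a floor of 3 counts for the controls together.

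**Figure D5:**
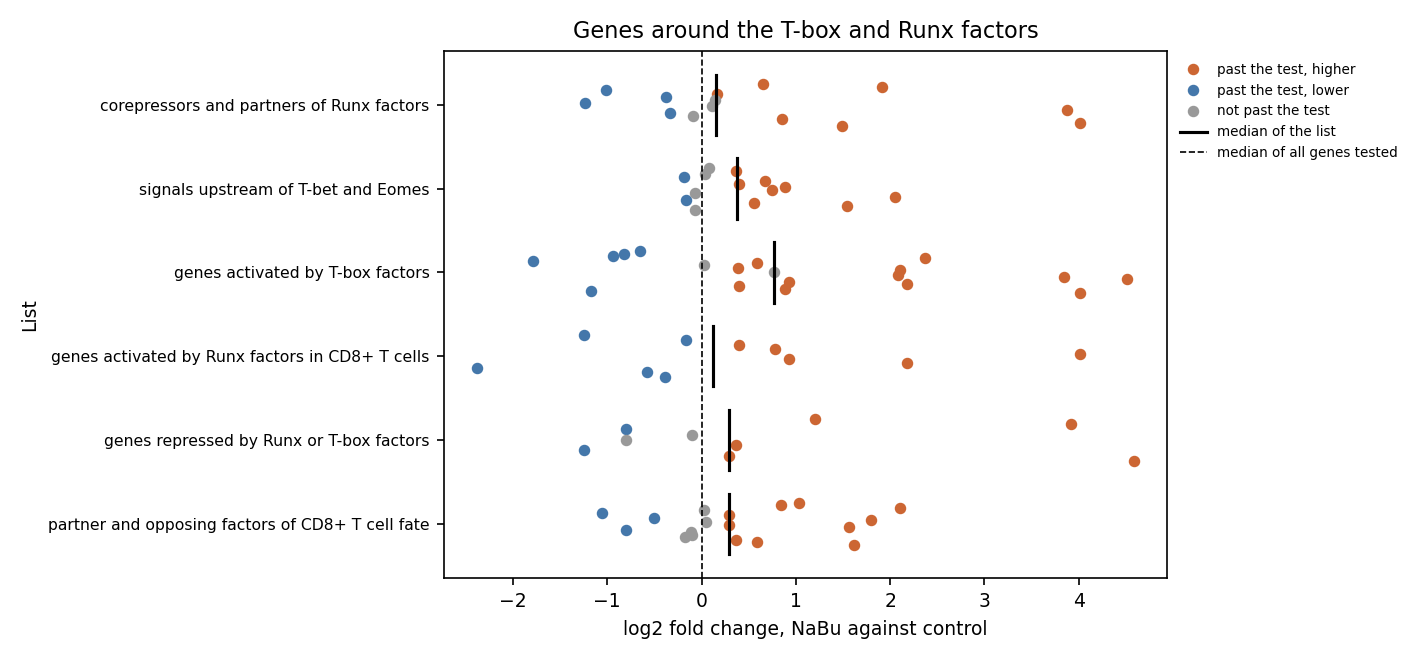
Log2 fold changes of the tested genes of 6 lists around the T-box and Runx factors, in orange or blue for genes past the test and grey for the others, with the median of each list as a bar and the median of all genes tested as a dashed line. Every list has genes on both sides of the dashed line. The values of *Cd4* (4.59) and *Il6ra* (3.92) rest on 3 and 2 control counts in all and depend on the prior count of the fit.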

How the data were processed

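RNA-seq libraries of 2 control and 2 NaBu samples were grouped by their titles. The submitters' processing notes name Bowtie2, RSEM and the build mm10. Neither their versions nor the annotation and strandedness are stated in the sources used. The deposited files give expected counts, FPKM values made by the authors and transcript lengths, per the file headers. RSEM divides reads that match several genes by estimation. Genes missing from 1 library's list but present in another entered as 0.

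Expected counts were rounded and tested with edgeR 4.0.16 in R 4.3.3 (TMM factors, filterByExpr, quasi-likelihood F test, no covariates, 2 residual degrees of freedom per gene), adjusted by Benjamini-Hochberg over 12943 genes and called at 0.05. Each SE was obtained as |log2 fold change| / √F. Scripts were tested on simulated data. The alternatives were other scalings, filters and tests (DESeq2 1.42.0, limma 3.58.1, glmTreat), the replicate block, leaving out each library, and, added after seeing the data, the removal of a trend on GC content, known for 98.8% of tested genes. Intervals and floors cover counting error only.

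The 6 genes and all lists were chosen with earlier results of these data known. Of each list up to 4 genes past the test with an FPKM of 1 or more were named by size of change, and other named genes were chosen after their values were seen. A gene that this rule would name among the upstream signals is counted but not reported here. Marker lists were used as a description. Coordinates and promoter windows come from RefSeq (GRCm38.p6), and overlaps and neighbours from GENCODE for the same assembly.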

Additional observations from a re-analysis of the deposited data

How the results depend on the processing

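Each of the 6 genes kept its direction in all 16 alternatives. *Tbx21* (log2 fold changes of 0.91 to 1.21), *Eomes* (0.72 to 0.88), *Runx3* (0.73 to 0.92) and *Cbfb* (-1.37 to -1.15) also stayed past the threshold in all 16, with adjusted p-values of at most 0.00186, 0.00706, 0.00441 and 0.00303. *Runx1* (-0.61 to -0.36) lost its call only against a 1.5-fold null (-0.51, adjusted p = 1.0). *Runx2* lost it in 6 of 16, namely against that null (0.21, adjusted p = 1.0), with no filter on low counts (0.19, 0.0727), by limma on log2(FPKM + 1) with no filter (0.27, 0.0515) and when 3 of the 4 libraries were left out in turn (0.14 to 0.27 over all 4, adjusted p from 0.00612 to 0.203, the lone library being assumed to vary like the other group). The 1.5-fold null left 3779 of the 8884 genes called, 2214 higher and 1565 lower, as its construction implies. Library totals moved the median log2 fold change of all genes tested from 0.005 to 0.102, so directions are relative to the TMM scale, and the calls of *Jak2*, *Stat5b* and *Cd3e* among the listed genes were lost there. Ratios and shares within a library moved by less than 1 SD when computed from TMM-scaled CPM per kilobase. A TMM factor is common to a whole library and cancels in them, so this comparison could not test them. They were not computed with the GC trend removed. The labels do not pair the replicates, and their differences were not correlated (r = -0.031 across genes). The replicate block called 8853 genes and changed no call of the 6 (*Runx2* adjusted p = 0.0176). With 2 libraries per group the standard errors lean on the spread pooled across genes.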
